A study of Mus musculus with 3 samples.

Results

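The values below follow 5 genes of T lymphocytes between mouse liver and spleen: Cd3d and Cd3g, which encode chains of the CD3 complex, Cd8a, which encodes the alpha chain of the CD8 co-receptor, Il2rb, which encodes the beta chain of the interleukin-2 receptor, and Satb1, a chromatin organiser of developing T cells. These 5 genes were chosen by their log2 ratios in the same liver and spleen comparison that is described here, with the opposite sides of Cd3d and Cd3g as the reason for the pair. Their values are therefore a description, and none of them was tested. All spots whose platform annotation names a single gene of the set were taken, which gave 7 of the 16273 spots on the array: 1 each for Cd3d, Cd3g and Cd8a, and 2 each for Il2rb and Satb1. All 5 genes were among the 5731 of 7984 named genes that had a value on all 3 arrays.

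The series holds 3 cDNA arrays read in 2 colours, numbered 1 to 3 by the labels and forming 1 group. Each array carried mouse spleen RNA in Cy3 and mouse liver RNA in Cy5. Both were purchased total RNA, and each was turned into cRNA by 2 rounds of amplification. The labels give no strain, age, sex or treatment, and nothing says whether an array had an animal, an RNA lot or an amplification of its own. The p-values below thus cover array-to-array spread alone, and that spread may be technical. Liver was always red and spleen always green, so effects of dye and of tissue cannot be told apart. The deposited values are log2 ratios of both channels, with numerator, background correction and centring not given in the sources used here. Positive ratios are called liver over spleen, a direction that is likely and not stated: the liver genes Fgb, Ambp and Ttr (Ttr on array 1 only) had medians of 4.19, 4.55 and 3.04 on arrays 1, 2 and 3, and the spleen genes Ms4a1, Ighm and Coro1a (Coro1a not on array 3) had medians of -3.06, -3.57 and -2.53. An exact 0 was read as a missing ratio. Values were present for 11120 to 15210 spots per array.

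The CD3 chains gamma, delta and epsilon and the zeta chain (Cd247) pair with the T-cell receptor, carry its signal into the cell and are needed for its display on the surface. CD8 binds MHC class I beside the receptor and brings the kinase Lck to it, and the beta chain of the interleukin-2 receptor, shared with the interleukin-15 receptor, passes growth signals to T cells and natural killer (NK) cells. Spleen holds large T-cell zones around its arterioles, while liver is made mostly of hepatocytes with resident and passing lymphocytes. In tissue RNA, fewer cells of a type and less RNA per cell cannot be told apart.

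Cd3g and Cd3d are neighbours on mouse chromosome 9 and are read in opposite directions, with start sites 1355 bases apart. Their promoter windows are shown because these adjacent genes gave ratios on opposite sides. The sequences are from RefSeq (GRCm38.p6), 250 bases before to 50 after the start site, written 5′ to 3′ on the gene's own strand. Capitals mark each CACCTG, a form of the E-box bound by the E proteins of lymphocytes, on either strand.
Cd3g, chr9:44980382-44980681, minus strand: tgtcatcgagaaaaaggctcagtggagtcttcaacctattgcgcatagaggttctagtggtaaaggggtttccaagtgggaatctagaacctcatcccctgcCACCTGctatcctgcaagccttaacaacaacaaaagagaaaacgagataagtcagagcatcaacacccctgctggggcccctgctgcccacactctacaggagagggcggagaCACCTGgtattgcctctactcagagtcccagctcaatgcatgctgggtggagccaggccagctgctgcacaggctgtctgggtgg
Cd3d, chr9:44981536-44981835, plus strand: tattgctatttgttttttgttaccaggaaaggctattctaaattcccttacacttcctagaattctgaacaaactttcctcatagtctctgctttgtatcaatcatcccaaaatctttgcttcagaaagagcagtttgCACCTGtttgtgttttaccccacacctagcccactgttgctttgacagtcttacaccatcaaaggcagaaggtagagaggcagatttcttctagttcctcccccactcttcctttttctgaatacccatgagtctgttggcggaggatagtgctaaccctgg
The windows do not overlap, and 854 bases lie between them. CACCTG was found 2 times for Cd3g, starting 148 and 35 bases before the start site, and 1 time for Cd3d, 112 bases before it, and 20.2% of all 32851 promoter windows hold it on either strand. The ETS core GGAA had 2 matches for Cd3g and 6 for Cd3d, and 96.0% of windows hold it. TGTGGT, a RUNX core, had no match in either window, and 16.8% of windows hold it. None of these motifs overlapped another in these windows. The motifs were chosen with the sequences in view, and a match is a description of letters only. Of the other genes, Cd8a and Satb1 had windows in the same source. No array probe sequence was used here.

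Cd3g stood far on the spleen side. Its only spot had log2 ratios of -2.59, -3.80 and -2.99 on arrays 1, 2 and 3, a mean of -3.13 ± 0.62 (SD, n = 3 arrays), or 8.73-fold higher in spleen. Array 2 was the lowest by a wide margin, and all 3 values lay well below 0. In the order of mean ratios from the spleen end, Cd3g was number 26 of 5731 genes. Its SD was larger than that of 93.4% of genes, against a median SD of 0.22.

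Cd3d, measured by 1 spot as well, stood on the liver side. Its log2 ratios were 1.10, 1.41 and 1.23, a mean of 1.24 ± 0.16, or 2.37-fold higher in liver. The 3 arrays lay close together, with a smaller SD than Cd3g, and 89.8% of genes had a lower mean. Cd3d exceeded Cd3g by 3.68, 5.21 and 4.22 (log2) on arrays 1, 2 and 3, a mean difference of 4.37 ± 0.77, which is 20.7-fold between their tissue ratios. The ranges of both genes are separated by more than 3 units on every array, and 1 spot each means that no further clone of either gene could be compared.

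The zeta chain Cd247, which was not chosen by the rule, took the side of Cd3g. Its spot read -1.96, -2.08 and -1.70, a mean of -1.91 ± 0.19, or 3.77-fold higher in spleen (limma adjusted p = 0.000211). Cd247 lay 3.16 ± 0.29 below Cd3d and 1.21 ± 0.55 above Cd3g on the log2 scale, with the same order on each array, where it was at least 2.93 below Cd3d and at least 0.63 above Cd3g. Of the genes next to the CD3 genes in the annotation, Cd3e, Ube4a, Gm19121, Mpzl2 and Mpzl3 were not analysed here, as no single-gene spot carried their names.

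**Figure D1:**
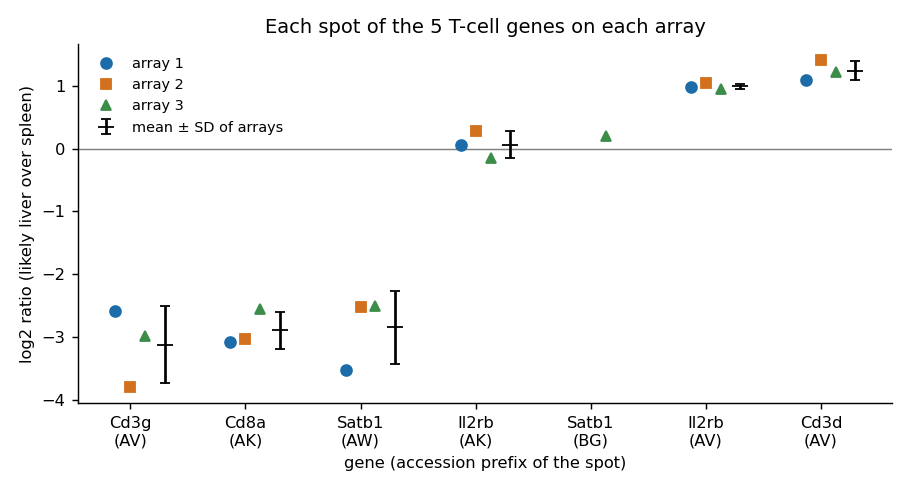
Log2 ratio (vertical axis, likely liver over spleen) of each of the 7 spots of the 5 genes on arrays 1 to 3 (circle, square, triangle), ordered by mean, with the accession prefix of the spot below the gene. Bars are the mean ± SD over arrays; Cd3g, Cd8a and the AW spot of Satb1 lie below -2.5 on every array, and Cd3d lies above 1 on every array.

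Of the co-receptors, Cd8a was far on the spleen side and Cd4 less so. The Cd8a spot had log2 ratios of -3.09, -3.04 and -2.56, a mean of -2.90 ± 0.29, or 7.44-fold higher in spleen. Arrays 1 and 2 nearly coincided and array 3 was nearer to 0. Cd8a ranked number 35 from the spleen end. Its difference from Cd3g was 0.23 ± 0.65, with the sign differing between arrays, so the order of the pair was not larger than the spread between arrays. Cd4, the co-receptor of helper T cells and a gene outside the set, read -0.96, -0.81 and -0.64, a mean of -0.80 ± 0.16, or 1.74-fold higher in spleen (limma adjusted p = 0.00340). When limma's moderation of variances across genes was left out (own variance), Cd4 was not called (adjusted p = 0.0506, from 0.00209 upwards over its alternatives).

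Satb1 tethers distant chromatin sites in thymocytes and recruits remodelling enzymes to them. Its 2 spots gave unlike pictures. The spot with an AW accession read -3.53, -2.52 and -2.50, a mean of -2.85 ± 0.59, or 7.21-fold higher in spleen, with array 1 the lowest. The spot with a BG accession had a value on array 3 only, 0.20. Averaged over the spots present on each array, the gene stood at -3.53, -2.52 and -1.15, with a mean of -2.40 ± 1.19, and its SD was larger than that of 99.6% of genes. Without the BG spot the SD over the same arrays was 0.59. With exact zeros kept as ratios of 0, the gene mean was -1.39, and with spots holding 3 values only, a choice made after seeing the data, it was -2.85.

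Values present on array 3 alone lay near a small positive ratio in general. Over the 1634 named spots of that kind the median was 0.25, with 5th and 95th percentiles of -0.32 and 0.66, and 4.53% reached an absolute log2 ratio of 1. Over the 8284 named spots with 3 values, the array 3 ratios had a median of -0.04 with percentiles of -1.66 and 1.83, and 27.1% reached 1. The BG spot of Satb1 lay within the narrow band and the AW spot outside both ranges.

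**Figure D2:**
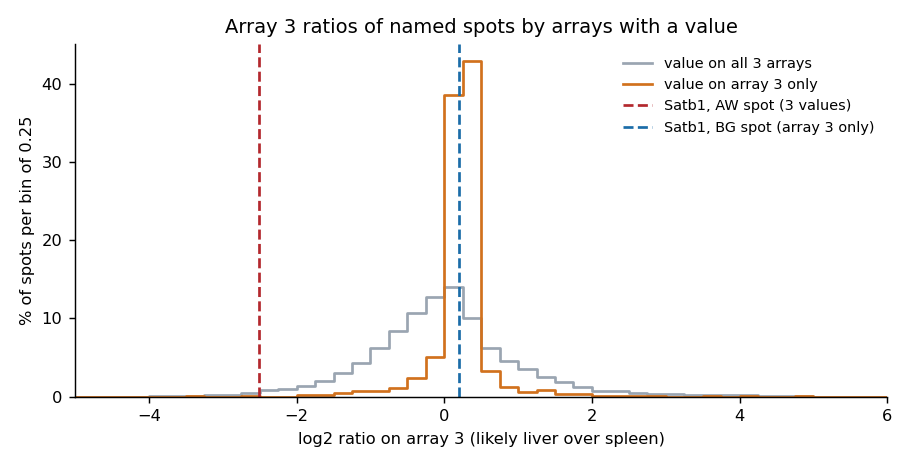
Distribution of array 3 log2 ratios (horizontal axis, likely liver over spleen), as the percent of named spots per bin of 0.25, for 1634 spots with a value on array 3 only and 8284 spots with a value on all 3 arrays. Dashed lines mark the Satb1 spots, at 0.20 (BG) and -2.50 (AW); the BG spot sits in the narrow peak of the former.

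Il2rb was the second gene of the set on the liver side, with a size that depended on the clone. The AV spot read 0.99, 1.04 and 0.95, a mean of 0.99 ± 0.04, or 1.99-fold higher in liver. The AK spot read 0.05, 0.28 and -0.15, a mean of 0.06 ± 0.21, with array 3 on the other side of 0. The AV spot was higher on every array, by 0.93 ± 0.17 on average. Averaged, Il2rb stood at 0.52, 0.66 and 0.40, a mean of 0.53 ± 0.13, or 1.44-fold, and 76.5% of genes had a lower mean. Among 948 genes with 2 spots of 3 values each, the median difference between spots was 0.33, and 172 genes (18.1%) differed by at least as much as Il2rb.

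Cd3g, Cd3d and the higher Il2rb spot all carried AV accessions. Of 126 named AV spots with 3 values, 28 (22.2%) had a mean of -1 or below and 19 (15.1%) a mean of 1 or above. Among all 8284 named spots with 3 values these shares were 13.6% and 15.0%. For 39 genes an AV spot could be set beside spots of other accessions. Across these genes, which are not independent replicates, the means correlated with Pearson's r = 0.77 and Spearman's rho = 0.76. Signs were opposite for 12 of them (30.8%), and for 2 with both means at least 0.5 from 0. Over the 948 genes with 2 spots of any accession, 238 (25.1%) had spots on opposite sides. Cd3d and Cd3g were not among the 39, and the part of the clone in their values was not tested.

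In order of mean ratio the 5 genes ran Cd3g, Cd8a, Satb1, Il2rb and Cd3d. The ranges over arrays of Cd3g (-3.80 to -2.59), Cd8a (-3.09 to -2.56) and Satb1 (-3.53 to -1.15) overlapped, so these 3 neighbours did not differ beyond their spread. As gene means, Il2rb (0.40 to 0.66) and Cd3d (1.10 to 1.41) did not overlap each other or the former. The Il2rb range is that of 2 averaged spots, which ran from 0.95 to 1.04 (AV) and from -0.15 to 0.28 (AK).

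**Figure D3:**
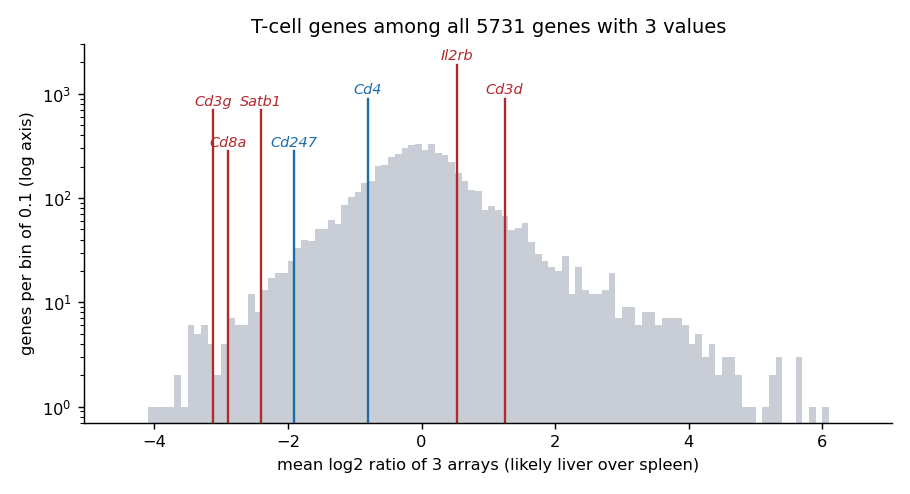
Number of genes (log axis) per 0.1 of mean log2 ratio of 3 arrays (likely liver over spleen) for 5731 genes. Red lines mark the 5 genes and blue lines the related Cd247 and Cd4; Cd3g, Cd8a and Satb1 lie in the spleen tail, while Il2rb (0.53) lies near the bulk and Cd3d (1.24) to its right.

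The genes nearest to each of the 5 were found by the Euclidean distance between their 3 log2 ratios, over all genes with 3 values. For Cd3g they were Xlr4c at a distance of 0.33, the platelet tubulin Tubb1 at 0.49 and the centrosomal protein Nin at 0.49, and only 3 genes lay within 0.5. Cd8a had Ctla2a at 0.18, the B-cell adaptor Blnk at 0.18 and Gm8989 at 0.21, with 12 genes within 0.5. Cd3d lay in a crowded region, with 208 genes within 0.5: Jagn1 at 0.07, Tmem106b at 0.10 and Atp5b, a subunit of ATP synthase, at 0.12. Il2rb had 720 such genes, led by Serf2, Klhdc10 and Tsfm at 0.05, 0.05 and 0.06. Satb1 had none within 0.5. Ipo11, a nuclear import receptor, followed at 0.54, Uhrf1 of DNA methylation maintenance at 0.83 and the antiviral Rsad2 at 0.95. The profiles of Satb1, Ipo11 and Uhrf1 each average in spots that lack a value on some array. With only spots holding 3 values their means were -2.85, -2.66 and -2.86. The part of missing values in these distances was not tested.

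Other T-cell genes lay mostly on the spleen side. In 4 lists of 128 genes without the 5, 41 had any value and 28 had 3 values. Of these 28, 18 (64.3%) were higher in spleen, 1 (3.57%) was higher in liver and 9 were not called, with a median log2 ratio of -0.98. Over all genes tested, 54.9% were called by limma at an adjusted p under 0.05, 27.8% higher in spleen and 27.1% higher in liver, with a median of -0.03. The lists were chosen with earlier results of these data known, so their shares are a description and no independent result. Many of these T-cell genes are also active in B cells or myeloid cells, which abound in spleen. A further 13 genes had a value on some arrays only, and of these 9 had a mean above 0 and 4 below, with 5 of the 9 on array 3 alone (such as the kinase Fyn at 0.41). By absolute mean, the largest of the 13 was the activation marker Cd69, at -3.23 on array 1. Next came the transcription factor Nfatc3, at 2.93 and 0.89 on arrays 2 and 3. The surface gene Tnfrsf18 followed, at -1.46 and -0.41 on arrays 1 and 3, then the orphan receptor Nr4a1, at 1.45 and 0.27 on arrays 2 and 3.

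Signalling genes close to the receptor made up the longest of these lists. Among 15 tested, 11 were called on the spleen side and 1 on the liver side (median -1.12), beside 27.8% and 27.1% of all genes. Dgka, a diacylglycerol kinase that dampens receptor signals, read -2.89, -3.23 and -2.61 (mean -2.91 ± 0.31, limma adjusted p = 0.000105). The phosphatase Ptpn22, a brake on Src-family kinases, stood at -2.29 ± 0.36, the adaptor Lcp2 (SLP-76) at -2.29 ± 0.31 and the adaptor Skap1 at -1.95 ± 0.18. Nck2, an adaptor that links receptors to actin, was the only one on the liver side, with 1.37, 1.76 and 1.18 (mean 1.44 ± 0.29, adjusted p = 0.000840), and its paralog Nck1 stood at -1.54 ± 0.39. Csk, Sla2 and Ubash3a, negative regulators of the receptor, were not called, with means of -0.04, -0.26 and -0.40. When variances were not moderated, 6 genes of the list were called in spleen and none in liver, and Nck2 had an adjusted p of 0.0514 (from 5.26e-05 upwards over its alternatives). With values needed on only 2 arrays, Nfatc3 joined Nck2 on the liver side (limma adjusted p = 0.0345), which made 2 genes there.

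All 3 surface genes tested were higher in spleen (median -1.50), beside 27.8% of all genes called in spleen and 54.9% in either direction. They were the gut-homing integrin Itgb7 at -2.67 ± 0.44, Cd96 at -1.50 ± 0.26, and Itgae, the alpha chain of the CD103 integrin, at -0.99 ± 0.89. In this list 10 genes had any value, and the untested ones lay on both sides. S1pr1 (0.39), Cd44 (0.27), Cxcr4 (0.24) and Cd7 (0.03) had means above 0, and Cd69 (-3.23), Tnfrsf18 (-0.93) and Slamf1 (-0.57) below. Itgae read -0.88, -0.17 and -1.93, and its call (limma adjusted p = 0.0470) was lost under 7 alternatives, with an adjusted p of 0.154 without array 1, 0.121 without array 3 and 0.000262 to 0.273 over all its alternatives. Of 6 transcription factors 3 were higher in spleen (median -0.64), namely the E protein Tcf3 (-1.52 ± 0.27), Foxp1 (-1.46 ± 0.20) and the Ikaros-family Ikzf3 (-1.02 ± 0.27, not called under its own variance, limma adjusted p = 0.0669; range over alternatives 0.000261 to 0.0669), and Id2, Id3 and Foxo1 were not called, with means of -0.26, -0.07 and 0.05.

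No other chain of the interleukin-2 receptor was tested. Of 4 genes acting downstream, Socs1, an inhibitor of JAK kinases, was higher in spleen (-0.67 ± 0.35, limma adjusted p = 0.0180), a call lost without array 1 (adjusted p = 0.104) or array 3 (0.0650), with a range of 0.00183 to 0.145 over its alternatives. The other 3, Shc1 (-0.19), Stat5b (-0.19) and Grb2 (0.18), were not called. This single call among 4 stood beside 27.8% of all genes called in spleen and 54.9% in either direction. The gene mean of Grb2 hid spots on opposite sides, at 1.08 and -0.72.

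Of 7 genes of chromatin complexes tied to SATB1, 3 were called on the spleen side and the other 4 were not called (median -0.48), beside 27.8% of all genes called in spleen and 54.9% in either direction. Smarca5, the ISWI ATPase, stood at -1.39 ± 0.15, the corepressor Ctbp1 at -0.81 ± 0.03, and the deacetylase Hdac1 at -0.48 ± 0.17, a call lost without array 1 (limma adjusted p = 0.171) or array 3 (0.0571) and spanning 0.0187 to 0.171 over all alternatives. Cux1 (-0.91 ± 0.88), Chd4, Mta2 and Rbbp7 were not called.

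Markers of other cells are of the kind that set the direction of the ratios, so their sides are no independent result. All 9 hepatocyte genes were higher in liver, from 3.88 to 5.68, led by Baat (5.68 ± 0.27), F11 (5.65 ± 0.22), Gnmt (5.29 ± 0.25) and Apoc3 (5.21 ± 0.38). Among 8 genes of B cells, 7 were called on the spleen side (median -3.13), led by Cd83 (-4.01 ± 0.14), Jchain (-3.45 ± 0.51), Pou2af1 (-3.41 ± 0.14) and Cr2 (-3.30 ± 0.95), of which Cr2 was not called under its own variance (limma adjusted p = 0.0737, from 4.62e-06 upwards over its alternatives). Of the NK and cytotoxic list only Fcer1g (-1.72 ± 0.17), also a gene of myeloid cells, and Cst7 (-0.76 ± 0.21) were tested, and both were higher in spleen. Cst7 was not called under its own variance (limma adjusted p = 0.0701, from 0.00169 upwards over its alternatives). Of the B-cell list, 10 genes had any value, and those not tested lay above 0. Spib read 1.11 and 0.77 on arrays 2 and 3 (mean 0.94), and Btk read 0.16 on array 3 alone. With values needed on only 2 arrays, 1 gene of this list was called on the liver side. The means of Cd3g, Cd8a and Satb1 lay within the range of the tested B-cell genes. Those of Cd3d and Il2rb lay above all 8 tested B-cell genes and below all 9 hepatocyte genes, and that of Il2rb lay below Spib. How far cell makeup bears on either value was not tested.

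**Figure D4:**
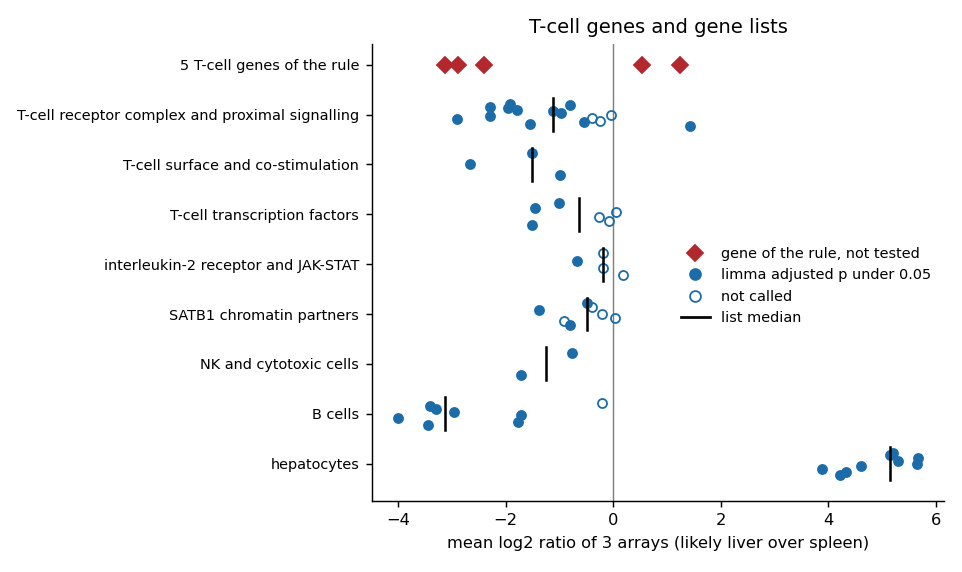
Mean log2 ratio of 3 arrays (horizontal axis, likely liver over spleen) of the 5 genes (red diamonds, not tested) and of each tested gene of 8 lists (circles, filled where limma's adjusted p was under 0.05), with list medians as black bars. Cd3d at 1.24 and Nck2 at 1.44 are the T-cell genes above 1.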

How the data were processed

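RNA abundance in liver against spleen was read on 3 arrays of 1 group, each with both tissues. The authors deposited a log2 ratio for every spot of each array; base 2 is read from the maximum, which equals the log2 of 100. Background correction, normalization, filters and the numerator channel: not given in the sources used here. Channel intensities were not used, so the signal behind a ratio is unknown; precision is limited by having 3 arrays.

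The platform annotation names a single gene for 12336 spots, several for 61 and none for 3876. Current symbols came from RefSeq (GRCm38.p6) by Entrez identifier, matched for 12228 of 12397 annotated spots. Gene coordinates served only for the promoter windows and for the order of genes around the CD3 genes. An exact 0 (1063 to 5153 spots per array) was taken as missing, and spots of a gene were averaged per array. For genes with 3 values the mean was compared with 0 by limma 3.58.1 (R 4.3.3; lmFit, eBayes; two-sided; Benjamini-Hochberg over 5731 genes; called under 0.05). The fit has 2 residual and 3.51 prior degrees of freedom and was tested on simulated data. The members and lists were chosen with earlier results of these data known.

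Named were the 5 genes, up to 4 called genes per list and direction by size, measured CD3, CD4, CD8 and interleukin-2 receptor chains, the 3 nearest genes to each of the 5, and the neighbours of the CD3 genes; others, such as those not called, were named after their values were seen. Alternatives were exact 0 as a value, values on at least 2 arrays, the spot with the largest mean, no AW and AU clones, centred or scaled arrays, each gene's own variance, each array left out and, added after seeing the data, only spots with 3 values. Under own variance the p-values came from an ordinary t-test without moderation.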

Additional observations from a re-analysis of the deposited data

How the results depend on the processing

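The ratios of Cd3d, Cd3g and Cd8a kept their side under every alternative run on them, as did Il2rb and Satb1 as gene means. The 5 genes were chosen by these same ratios, so a kept side is no support for them. Cd3d, Cd3g and Cd8a have 1 spot each with 3 values. Alternatives on zeros, missing values, spots and clones therefore returned the same means for these genes by construction. Cd3d minus Cd3g ranged from 3.95 to 4.71 with 1 array left out. Il2rb rose to 0.99 with the spot of largest mean. Satb1 ranged from -3.02 to -1.83 with 1 array left out and, without AW and AU clones, had no value on 3 arrays and was not tested. The 3146 calls over all genes became 1461 with each gene's own variance, and between 1841 and 3343 with 1 array left out (1841 without array 1). Counts with 1 array left out, here and per list, are over other sets of genes. They take in genes that lack a value on the array left out. Under own variance the receptor signalling list had 6 genes called in spleen, the NK and cytotoxic list 1 and the interleukin-2 receptor list 0. The single call of that last list, Socs1, was also 0 with exact zeros as values, and 0 to 1 with 1 array left out. The surface list had 2 to 5 calls with 1 array left out (5 without array 2). Of 42 tested genes that the naming rule picked beside the 5, 27 kept direction and call under each alternative that could be run on them, and none changed direction. Each ratio already sets both tissues of 1 array against each other, so no further block was run. Depth is unknown, and a single spot stands behind Cd3d, Cd3g and Cd8a.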
